A study of Mus musculus with 8 samples.

Results

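The exporters that carry bile salts and phospholipids out of the mouse hepatocyte were examined across genotype label and treatment. The set was chosen with earlier results of these data known, though no measured value decided its membership. It held 9 genes of the 16593 on the array, named for the membrane they work in. Of these, 5 act at the canalicular membrane, which faces the bile (Abcb11, Abcb4, Abcc2, Atp8b1 and Abcg2), and 4 act at the basolateral membrane, which faces the blood (Abcc3, Abcc4, Slc51a and Slc51b). The array carried 9 probes for 8 of them, with a second, dimmer probe for Abcc2 and none annotated to Abcc4. Of the 8, 7 passed the filter on low signals and were tested, 4 canalicular and 3 basolateral, and Abcg2 did not pass.

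The RNA came from whole liver of male mice aged 10 to 12 weeks. Both GW4064 groups, labelled Fxr-/- and Fxr+/+, had been gavaged over 7 days, 2 times daily, with 30 mg/kg of GW4064, and the vehicle group of each genotype label had received vehicle on the same schedule. GW4064, a synthetic ligand, activates the farnesoid X receptor (FXR, gene Nr1h4), and the study asked which liver genes this receptor controls. Every group had 2 deposited arrays, and a pool of 3 to 4 animals gave the RNA of each array. The strain, the vehicle and the construction of the Fxr-/- allele are not given in the sources used here. One column, Fxr-/- vehicle replicate 2, held whole numbers between 14 and 139 that did not track any other array (highest Spearman correlation 0.0559), so it was left out and the vehicle group labelled Fxr-/- rested on 1 array. That array was assumed to vary like those of the other groups, and each p-value measures only the spread between pools.

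Bile salts are taken up from portal blood, and hepatocytes secrete them across the canalicular membrane through the bile salt export pump. Phospholipid is flopped into bile by a separate ABC transporter, and a P4 flippase keeps the membrane ordered against the detergent action of the bile salts. When bile salts accumulate, export across the basolateral membrane offers a way back to the blood, through ABC pumps of the MRP family and through an organic solute transporter made of an alpha and a beta subunit. FXR is the bile acid sensor of the liver, and the genes of the bile salt export pump and of the organic solute transporter are textbook targets of it. FXR binds as a partner of RXR to an inverted repeat of a half-site spaced by a single base.

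The deposited values were background-subtracted signals on a linear scale, between 31.5% and 31.6% of each array lay below 0, and the background range was taken as signals under 39.5, since the lowest value was as far below 0. Differences are given on the scale log2(signal + 16) with signals below 0 set to 0, which understates the change of dim genes. They were tested with limma over 9766 genes in 1 fit of the 7 arrays, two-sided, with Benjamini-Hochberg adjustment and a threshold of 0.05. The targeted gene was still detected under the Fxr-/- label. Nr1h4 gave 2048.3 and 1851.9 in the GW4064 arrays labelled Fxr-/-, 3271.6 in the vehicle array labelled Fxr-/-, 3327.7 and 3483.0 in the Fxr+/+ GW4064 arrays, and 3958.8 and 4411.4 in the Fxr+/+ vehicle arrays. Its signal was lower but not lost under the Fxr-/- label, and whether the probe lies in the deleted part of the gene is not known here, so every genotype below is given as labelled. The hepatocyte markers Apoa1, Ttr, Cps1, Ahsg and Ass1 had signals from 9843.5 to 32796.8 on the 7 arrays, Alb lay between 81.6 and 168.7, and Tat lay in the background range on all of them. In whole liver, fewer cells of a type and less RNA per cell cannot be told apart.

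**Figure D1:**
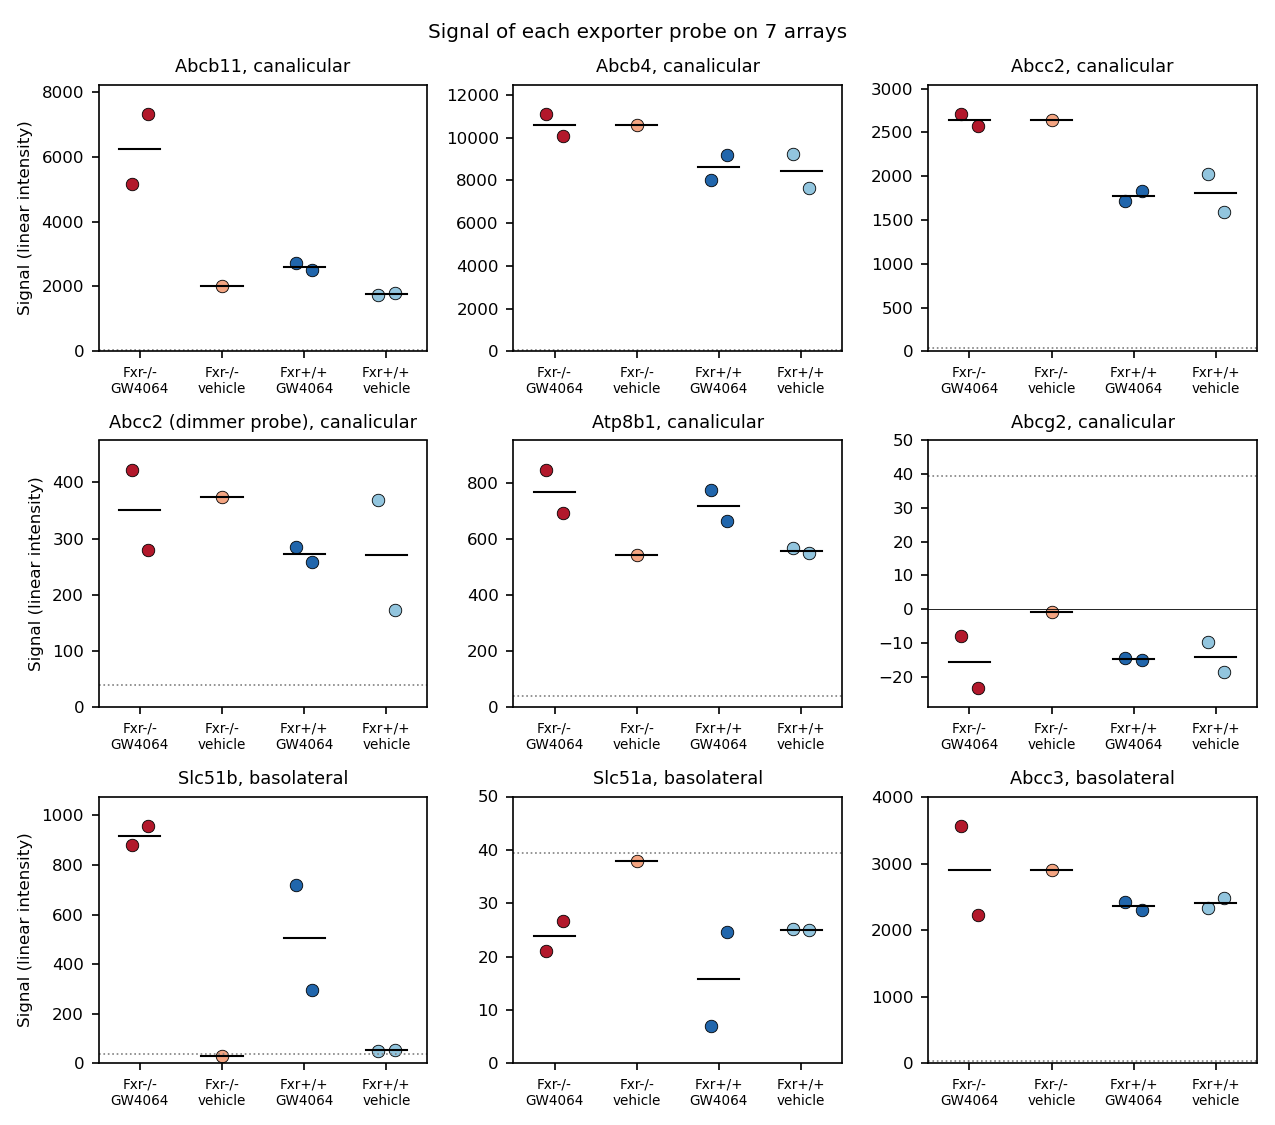
Deposited signal (linear intensity, vertical axis) of each of the 9 exporter probes on the 7 arrays, by group. Points are arrays, horizontal bars are group means, and the dotted line is the background range of 39.5. Abcb11, Atp8b1 and Slc51b had all 4 GW4064 arrays above all 3 vehicle arrays, whereas Abcg2 and Slc51a lay in the background range throughout.

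Of the canalicular exporters, Abcb11 gave the largest response to GW4064 among those tested. Abcb11 encodes the bile salt export pump, which moves conjugated bile salts into the canaliculus. Its probe gave 5159.9 and 7317.7 in the GW4064 arrays labelled Fxr-/-, against 2003.2 in the vehicle array of that label. In Fxr+/+ it gave 2719.3 and 2511.0 with GW4064, against 1728.8 and 1790.3 with vehicle. The GW4064 arrays lay above the vehicle arrays within both labels, and the highest values were those of GW4064 under the Fxr-/- label. The log2 change was 1.61 under the Fxr-/- label (SE 0.271, 95% interval 0.98 to 2.24, a 3.05-fold difference), which ranked 30 of all genes by p but did not pass (limma adjusted p = 0.138). In Fxr+/+ the log2 change was 0.57 (SE 0.222, 95% interval 0.05 to 1.08, 1.48-fold) and did not pass either (limma adjusted p = 0.968). The change under the Fxr-/- label passed in 1 of 17 alternative settings, a prior variance with a trend on signal (adjusted p = 0.0359), and that in Fxr+/+ passed in 0 of 17.

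The upstream sequences of the exporters with the largest GW4064 responses are shown so that the half-sites can be read against the FXR motif. The search used the 250 bases before the start site in RefSeq promoters of build GRCm38.p6, which held entries for 7 of the 9 exporters. The motif was the inverted repeat AGGTCANTGACCT, which reads the same on both strands. The closest window of each promoter is in capitals, both sequences run 5′ to 3′ towards the start site, and both genes lie on the minus strand.
Abcb11, chr2:69342617-69342866: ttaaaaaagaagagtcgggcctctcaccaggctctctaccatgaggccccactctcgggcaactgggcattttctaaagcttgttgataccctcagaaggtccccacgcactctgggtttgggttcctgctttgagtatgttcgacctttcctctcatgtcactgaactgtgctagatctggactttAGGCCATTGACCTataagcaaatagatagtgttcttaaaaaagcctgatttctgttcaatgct
Slc51b, chr9:65422774-65423023: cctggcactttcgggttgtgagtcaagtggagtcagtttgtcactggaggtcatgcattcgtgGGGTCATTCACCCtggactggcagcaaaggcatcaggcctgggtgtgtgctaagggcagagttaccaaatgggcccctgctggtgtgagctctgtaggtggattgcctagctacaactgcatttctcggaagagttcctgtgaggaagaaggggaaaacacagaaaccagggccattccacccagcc
In Abcb11 the window lay at positions -63 to -51 from the start site, at chr2:69342667-69342679, and differed from the motif by T4C, counting from 1 at the motif's 5′ end. Windows within 1 mismatch were present in 26 of 32851 RefSeq promoters, or 0.0791%. In Slc51b the window lay at positions -187 to -175 and differed by A1G, G9C and T13C, and windows within 3 mismatches were present in 9.63% of promoters. The closest windows of the other exporters had 3 mismatches in Slc51a, 4 in Abcb4 and in Abcc2, and between 3 and 6 at the alternative start sites of Abcg2 and Abcc4. These are matches of letters and describe the sequence, not binding. The Abcb11 gene spans chr2:69238282-69342616 and Slc51b spans chr9:65412753-65422773 in the same build.

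Atp8b1, the flippase that returns phosphatidylserine to the inner leaflet of the canalicular membrane, had smaller values in the same direction. It gave 844.8 and 691.8 in the GW4064 arrays labelled Fxr-/-, against 543.8 in the vehicle array. Fxr+/+ livers gave 774.7 and 662.6 with GW4064, against 566.1 and 550.4 with vehicle. All 4 GW4064 arrays lay above all 3 vehicle arrays, and the labels overlapped. The log2 change was 0.48 under the Fxr-/- label (SE 0.245, 95% interval -0.09 to 1.05, limma adjusted p = 0.61) and 0.35 in Fxr+/+ (SE 0.200, 95% interval -0.11 to 0.82, limma adjusted p = 1). Its partner Tmem30a, the CDC50 subunit that P4 flippases need to leave the endoplasmic reticulum, gave 300.8 and 264.5 against 369.8 under the Fxr-/- label, and 319.7 and 359.7 against 515.1 and 649.4 in Fxr+/+, GW4064 against vehicle in each. Tmem30a had lower values with GW4064 in both labels and passed the test in neither.

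Abcb4, the phospholipid floppase that delivers phosphatidylcholine to bile, gave overlapping signals with and without GW4064. It gave 11093.9 and 10066.7 in the GW4064 arrays labelled Fxr-/- against 10568.1 in the vehicle array. Fxr+/+ livers gave 8018.6 and 9194.1 with GW4064, against 9242.2 and 7626.9 with vehicle. The treatments overlapped within both labels. The log2 change was 0.00 under the Fxr-/- label (SE 0.246, 95% interval -0.57 to 0.57) and 0.03 in Fxr+/+ (SE 0.201, 95% interval -0.44 to 0.50), so changes of about 1.5-fold in either direction lay near the ends of these intervals (limma adjusted p = 1 in both).

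Abcc2, which exports conjugated bilirubin, glutathione conjugates and divalent bile salts, did not pass for GW4064 under either label. Its brighter probe gave 2707.9 and 2569.2 in the GW4064 arrays labelled Fxr-/- against 2640.4 in the vehicle array. In Fxr+/+ it gave 1716.9 and 1826.0 with GW4064, against 2020.4 and 1594.0 with vehicle. The treatments overlapped within each label, and the 3 arrays labelled Fxr-/- lay above the 4 Fxr+/+ arrays. Log2 changes with GW4064 were 0.00 under the Fxr-/- label (SE 0.244, 95% interval -0.57 to 0.57) and -0.02 in Fxr+/+ (SE 0.200, 95% interval -0.48 to 0.45). The dimmer probe gave 421.8 and 279.0 against 374.7 under the Fxr-/- label, and 285.4 and 258.6 against 368.3 and 173.2 in Fxr+/+, GW4064 against vehicle in each. On that probe the labels overlapped, so the separation by label rested on the brighter probe.

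Abcg2, the breast cancer resistance protein, exports sulphated conjugates and xenobiotics at the canaliculus. Its probe lay between -23.3 and -0.9 on all 7 arrays, within the background range, and no difference was tested.

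Of the basolateral exporters, Slc51b gave the largest change of the whole set, and its partner subunit stayed in the background range. Slc51b encodes the beta subunit of the organic solute transporter, which is needed for the alpha subunit to reach the membrane. It gave 880.6 and 956.9 in the GW4064 arrays labelled Fxr-/-, against 30.8 in the vehicle array. In Fxr+/+ it gave 719.0 and 294.7 with GW4064, against 50.8 and 53.7 with vehicle. All 4 GW4064 arrays lay above all 3 vehicle arrays, and the Fxr-/- vehicle array was within the background range. Slc51b rose with GW4064 under the Fxr-/- label, by at least 23.2-fold over the background range (log2 change 4.32, SE 0.449, limma adjusted p = 0.0459, rank 3 of all genes by p). The fitted log2 change depends on the offset added to a signal in the background range and is no bound. The adjusted p belongs to that fit, not to the bound. With signals raised to the background range, as for the bound, the call was lost, as it was with no filter. The same comparison called 0.0717% of all genes tested in either direction, and 0.0512% as higher. In Fxr+/+ the log2 change was 2.81 (SE 0.367, 95% interval 1.95 to 3.66, a 7.00-fold difference) and did not pass (limma adjusted p = 0.134), where 0.0205% of genes were called, 0.0102% as higher and 0.0102% as lower.

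The call for Slc51b under the Fxr-/- label held in 8 of 17 alternative settings, with adjusted p between 0.0044 and 0.243, and its log2 change stayed between 2.96 and 4.85. It was lost without either GW4064 array of that label (adjusted p = 0.128 without replicate 1 and 0.243 without replicate 2) and without either Fxr+/+ vehicle array (adjusted p = 0.0792 for each). The Fxr+/+ change passed without Fxr+/+ GW4064 replicate 2, with a log2 change of 3.43 and an adjusted p of 0.0418. Those Fxr+/+ GW4064 arrays differed 2.44-fold from each other for Slc51b, or by 1.24 on the log2 scale, which was at percentile 99.3 of all genes for that pair. For the pair of GW4064 arrays labelled Fxr-/- the log2 difference was 0.12, at percentile 22.8.

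Slc51a, the alpha subunit that forms the transporter with Slc51b, gave 21.1 and 26.6 in the GW4064 arrays labelled Fxr-/-, against 38.0 in the vehicle array. In Fxr+/+ it gave 7.0 and 24.6 with GW4064, against 25.1 and 25.0 with vehicle. All 7 values lay within the background range, so no fold is given, and the transcript was not detectable with this probe. Slc51a passed the filter because its signal exceeded the array median on at least 2 arrays, and its log2 values of -0.44 under the Fxr-/- label and -0.43 in Fxr+/+ did not pass the test.

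Abcc3, the MRP pump of the basolateral membrane that returns glucuronides and bile salts to blood, gave 3566.1 and 2237.3 in the GW4064 arrays labelled Fxr-/-, against 2910.6 in the vehicle array. Fxr+/+ livers gave 2419.5 and 2303.0 with GW4064, against 2340.7 and 2490.1 with vehicle. The treatments overlapped within both labels. The log2 change with GW4064 was -0.04 under the Fxr-/- label (SE 0.304, 95% interval -0.75 to 0.67) and -0.03 in Fxr+/+ (SE 0.249, 95% interval -0.61 to 0.55). The pair of GW4064 arrays labelled Fxr-/- differed by 0.67 on the log2 scale, at percentile 88.1 of all genes for that pair. Abcc4, a further MRP pump of the basolateral membrane, has no probe annotated to it and was not analysed here.

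**Figure D2:**
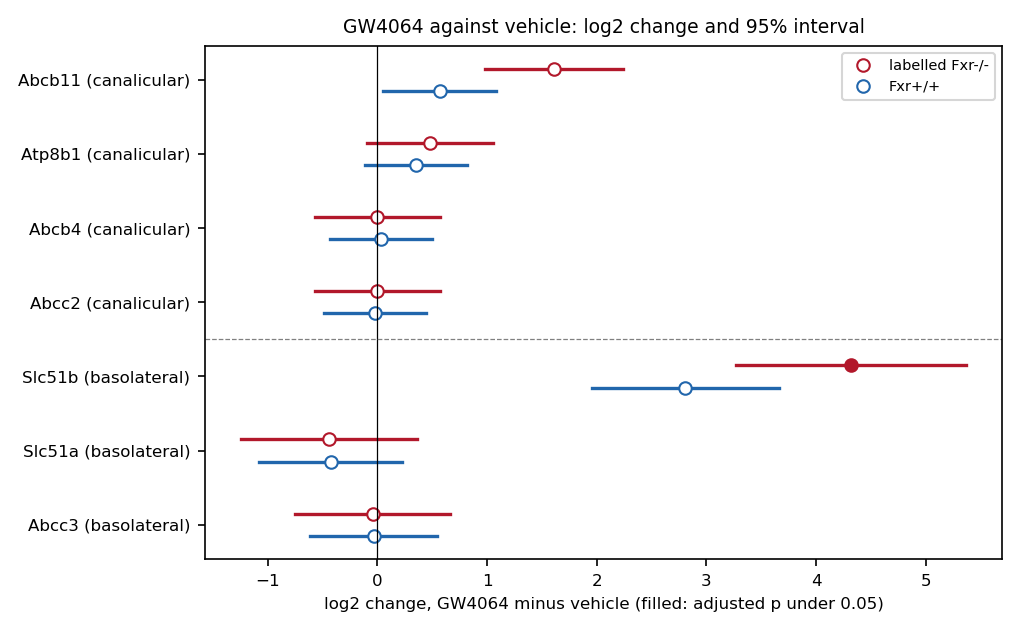
Log2 change with GW4064 against vehicle (horizontal axis) for the 7 exporters tested, under the Fxr-/- label (upper row of each gene) and in Fxr+/+ (lower row), with 95% intervals. Filled points passed the threshold. Slc51b under the Fxr-/- label passed at 4.32, and the intervals of Abcb4, Abcc2, Slc51a and Abcc3 all held 0.

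The canalicular and basolateral sides were set beside each other by counts and medians. Under the Fxr-/- label 0 of 4 canalicular exporters tested and 1 of 3 basolateral exporters passed with GW4064, where 0.0717% of all genes were called. In Fxr+/+ none of the 7 passed, where 0.0205% of all genes were called. In that comparison 494 of 9766 genes had an unadjusted p under 0.05 by limma, Abcb11 and Slc51b among them. The median log2 change of the canalicular exporters was 0.24 under the Fxr-/- label and 0.19 in Fxr+/+. The median of the basolateral exporters was -0.04 under the Fxr-/- label and -0.03 in Fxr+/+. It was the value of Abcc3, because the median counted Slc51a, which lay in the background range. Slc51b, the other basolateral exporter tested, had 4.32 and 2.81, so no contrast between the sides is read from these medians. All genes tested had a median of 0.01 under the Fxr-/- label and -0.01 in Fxr+/+. Abcb11 and Atp8b1 on the canalicular side and Slc51b on the basolateral side had log2 changes above 0 in both labels. Of all genes, 51.4% were above 0 under the Fxr-/- label and 48.7% in Fxr+/+, and the share above 0 in both was not counted. Abcb4, Abcc2 and Abcc3 had values near 0. The order of the Slc51a values has no meaning within the background range, which leaves 6 exporters. Under the Fxr-/- label 3 of them (Abcb11, Atp8b1 and Slc51b) had both GW4064 arrays above the vehicle array, as did 34.8% of all genes, and 0 had them below, as did 32.9%. In Fxr+/+ the counts were 3, of the same genes, and 0, against 15.7% and 17.7% of all genes.

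Averaged over both genotype labels, Slc51b rose and no other exporter passed. Its log2 change was 3.56 (SE 0.290, 95% interval 2.89 to 4.24, limma adjusted p = 0.00715, rank 3), in a comparison that called 0.0922% of genes in either direction, 0.0614% as higher and 0.0307% as lower. Abcb11 had an averaged log2 change of 1.09 (SE 0.175, 95% interval 0.68 to 1.50, limma adjusted p = 0.111) and Atp8b1 of 0.42 (SE 0.158, 95% interval 0.05 to 0.78, limma adjusted p = 0.46). Without either GW4064 array labelled Fxr-/- the averaged change of Slc51b no longer passed (adjusted p = 0.0513 without replicate 1 and 0.0753 without replicate 2). Nor did it pass with signals raised to the background range or with no filter. The averaged Slc51b change includes the vehicle array labelled Fxr-/-, in the background range, so its size depends on the offset and is no bound. Over the alternative settings it was between 2.43 and 3.98. Of the 7 exporters tested, 3 (Abcb11, Atp8b1 and Slc51b) had all 4 GW4064 arrays above all 3 vehicle arrays, as did 2.36% of all genes tested, and 0 had them all below, as did 2.17%.

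Ratios between probes of the same array restate how unequally the exporters changed. The deposited arrays were already normalized to each other, so the ratios are no independent evidence for these changes. The ratios were taken after the offset was added, so a scale of a whole array would not fully cancel for a dim probe. The size of a ratio has no meaning between different probes, and only its change is read. The log2 ratio of Abcb11 to Abcb4 was -1.10 and -0.46 in the GW4064 arrays labelled Fxr-/- against -2.39 in the vehicle array, and -1.55 and -1.87 against -2.41 and -2.08 in Fxr+/+. The ratio of the bile salt pump to the phospholipid floppase was thus higher on all 4 GW4064 arrays than on any vehicle array, by 1.07 on average (exact permutation test within genotype labels, two-sided, p = 0.0556). That is the smallest p the 18 permutations can give. Abcb11 over Abcc2 was higher by 1.10 (exact p = 0.0556), and Abcb11 over Abcc3 by 1.13 (exact p = 0.111). Slc51b over Abcb11 was higher on all 4 GW4064 arrays too (exact p = 0.0556), with no size given because Slc51b lay in the background range on the vehicle array labelled Fxr-/-. The 4 ratios share Abcb11 and were formed with the changes of these genes known. Adjusted over the 4, the exact p was 0.0741 for 3 ratios and 0.111 for Abcb11 over Abcc3, and no ratio could have passed with 18 permutations.

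**Figure D3:**
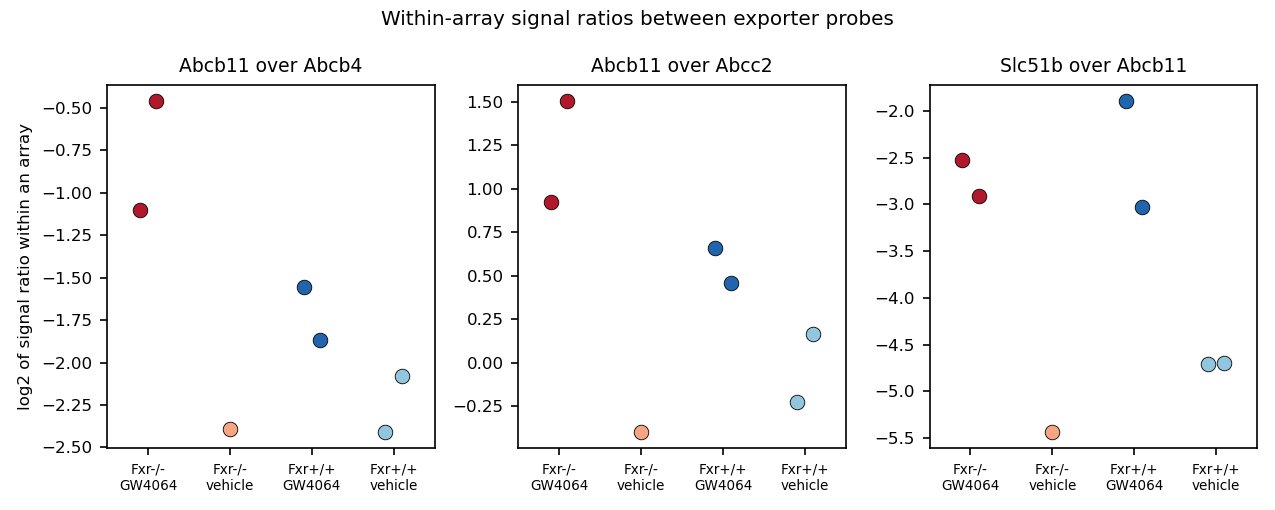
Log2 ratio of the signals of a pair of exporter probes within each array (vertical axis), by group, for Abcb11 over Abcb4, Abcb11 over Abcc2 and Slc51b over Abcb11. Points are arrays, the position of 0 has no meaning between probes, and Slc51b lay in the background range on the vehicle array labelled Fxr-/-. In each panel all 4 GW4064 arrays lie above all 3 vehicle arrays.

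Whether GW4064 acted differently under the Fxr-/- label and in Fxr+/+ was tested as the difference of the GW4064 changes. That difference was 1.04 on the log2 scale for Abcb11 (SE 0.350, 95% interval 0.23 to 1.86, unadjusted p = 0.0189 by limma across all genes, adjusted p = 0.663) and 1.51 for Slc51b (SE 0.580, 95% interval 0.16 to 2.86, unadjusted p = 0.033, adjusted p = 0.75). Both values leaned towards a larger change under the Fxr-/- label and did not pass. For the other 5 exporters tested the adjusted p was at least 0.97. This comparison called 0% of genes by limma, and 604 of 9766 had an unadjusted p under 0.05. It rests on the 1 vehicle array labelled Fxr-/-. Slc51b lay in the background range on that array, so the size of its difference depends on the offset. Over the alternative settings the Slc51b difference was between 0.89 and 2.13.

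Between the genotype labels, Abcb11 was higher under the Fxr-/- label with GW4064 and no exporter passed with vehicle. With GW4064, the 5159.9 and 7317.7 of Abcb11 under the Fxr-/- label stood against 2719.3 and 2511.0 in Fxr+/+ (log2 difference 1.23, SE 0.222, 95% interval 0.71 to 1.74, 2.34-fold, limma adjusted p = 0.0107). In this comparison 14.6% of all genes were called, 5.47% as higher and 9.14% as lower under the Fxr-/- label, so 1 of 7 exporters was a share close to that of all genes. The call for Abcb11 was lost without Fxr+/+ GW4064 replicate 1 (adjusted p = 0.061), without Fxr+/+ GW4064 replicate 2 (0.0825) and without GW4064 replicate 2 of the Fxr-/- label (0.0572). With vehicle the difference for Abcb11 was 0.19 (SE 0.271, 95% interval -0.45 to 0.82, limma adjusted p = 0.722), and 0 of 7 exporters passed where 6.85% of genes were called, 1.85% as higher and 5% as lower.

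Abcc2 differed between the labels by 0.57 on the log2 scale with GW4064 (SE 0.200, 95% interval 0.11 to 1.04, limma adjusted p = 0.103) and 0.55 with vehicle (SE 0.244, 95% interval -0.02 to 1.12, limma adjusted p = 0.216). Averaged over both treatments, an average added after the values were seen, Abcc2 was higher under the Fxr-/- label by 0.56 (SE 0.158, limma adjusted p = 0.0402) and Abcb11 by 0.71 (SE 0.175, limma adjusted p = 0.0255). That average called 22.3% of all genes, 9.73% as higher. Abcb4 differed by 0.32 in it (limma adjusted p = 0.195) and the other 4 exporters tested did not pass.

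The arrays of the labels were also read without a fit. All 3 arrays labelled Fxr-/- lay above all 4 Fxr+/+ arrays for Abcb4 and Abcc2, 2 of 7 exporters, as they did for 19.2% of all genes tested, and lay below them for 0, as they did for 16% of genes. With GW4064 alone, 4 of 7 exporters (Abcb11, Abcb4, Abcc2 and Slc51b) had both arrays labelled Fxr-/- above both Fxr+/+ arrays, as did 33.9% of genes, and 0 had them below, as did 25.3%. With vehicle alone, 4 of the 6 exporters other than Slc51a (Abcb11, Abcb4, Abcc2 and Abcc3) had the array labelled Fxr-/- above both Fxr+/+ arrays, as did 41% of genes, and 2 (Atp8b1 and Slc51b) had it below, as did 37.8%. Slc51b differed by 0.97 with GW4064 (SE 0.367, 95% interval 0.11 to 1.82, limma adjusted p = 0.129). With vehicle the array labelled Fxr-/- lay in the background range, and Slc51b was at least 1.32-fold lower. The fitted difference with vehicle, -0.54, depends on the offset and did not pass (SE 0.449, limma adjusted p = 0.504). The difference with GW4064 passed without Fxr+/+ GW4064 replicate 1 (adjusted p = 0.0196).

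**Figure D4:**
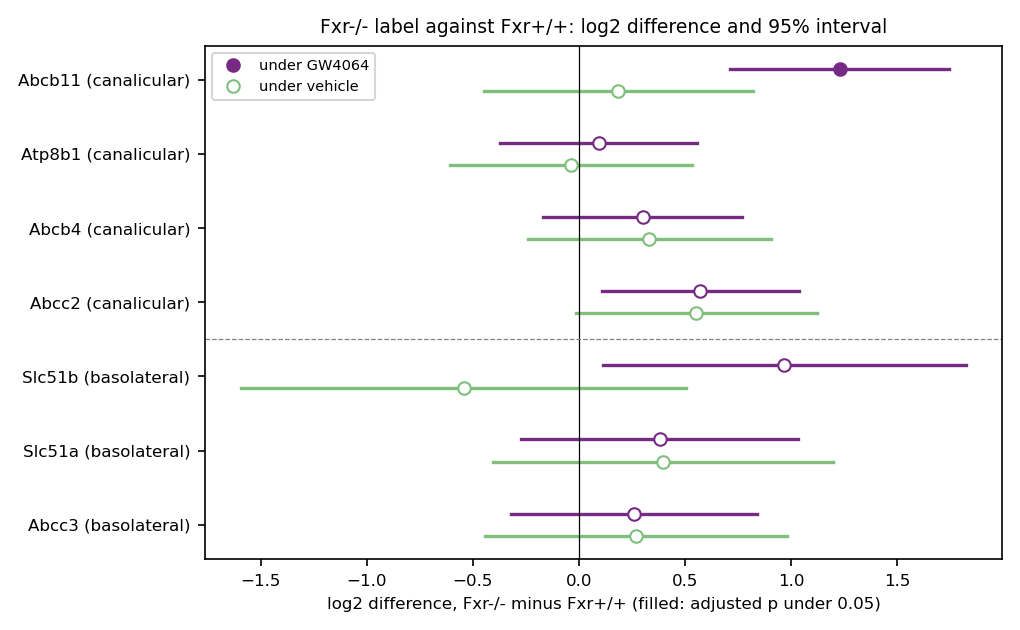
Log2 difference of the Fxr-/- label minus Fxr+/+ (horizontal axis) for the 7 exporters tested, with GW4064 (upper row of each gene) and with vehicle (lower row), with 95% intervals. Filled points passed the threshold. Only Abcb11 with GW4064 passed here, at 1.23, and Slc51b lay on opposite sides of 0 with GW4064 and with vehicle.

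Other export pumps and lipid transporters of the hepatocyte included genes with large differences between the labels. Of 11 listed, 8 were tested. None passed for GW4064 against vehicle under either label. Between the labels, 2 were higher and 3 lower under the Fxr-/- label with GW4064, and 1 was higher and 2 lower with vehicle. Of all genes, 5.47% were higher and 9.14% lower with GW4064, and 1.85% were higher and 5% lower with vehicle. Slc47a1, the cation and proton antiporter MATE1 of the canalicular membrane, gave 395.2 and 264.1 under the Fxr-/- label against 6029.7 and 6746.5 in Fxr+/+ with GW4064, and 504.7 against 6878.2 and 8379.8 with vehicle. It was lower by 4.24 on the log2 scale with GW4064 (limma adjusted p = 0.000129) and by 3.87 with vehicle (limma adjusted p = 0.000976).

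Abcc6, a basolateral pump linked to release of ATP and pyrophosphate, gave 239.3 and 175.4 against 819.1 and 1207.1 with GW4064, and 169.5 against 960.4 and 1248.7 with vehicle. Its log2 differences were -2.19 with GW4064 (limma adjusted p = 0.00216) and -2.58 with vehicle (limma adjusted p = 0.00542). Abcb1b, a multidrug pump of the P-glycoprotein family, gave 101.4 and 128.9 against 32.2 and 10.7 with GW4064, and 128.9 against 18.3 and -9.6 with vehicle. Its Fxr+/+ signals lay in the background range, and it was at least 2.89-fold higher under the Fxr-/- label with GW4064 (limma adjusted p = 0.0225) and at least 3.26-fold higher with vehicle (limma adjusted p = 0.022). Abcc5, an MRP pump of cyclic nucleotides and glutamate conjugates, gave 159.3 and 227.3 against 57.1 and 71.2 with GW4064 (log2 difference 1.37, limma adjusted p = 0.0094). The fifth call was Abcg8, a subunit of the canalicular sterol transporter, at -0.88 with GW4064 (limma adjusted p = 0.0457).

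The proteins that deliver canalicular pumps to the membrane and hold them there formed a list of 12, of which 9 were tested. None passed for GW4064 under either label, and 2 were lower and 0 higher under the Fxr-/- label with each treatment, where 9.14% of all genes were lower with GW4064 and 5% with vehicle. Pdzk1, a PDZ scaffold that binds the tails of apical transporters, gave 94.8 and 41.7 against 1674.2 and 1855.9 with GW4064, and 87.0 against 2088.1 and 2433.6 with vehicle. Its log2 differences were -4.48 with GW4064 (limma adjusted p = 0.000225) and -4.46 with vehicle (limma adjusted p = 0.00109). Slc9a3r1, the scaffold NHERF1 that links transporters to radixin, gave 753.2 and 823.3 against 3026.5 and 3514.8 with GW4064, and 566.5 against 2524.3 and 4206.2 with vehicle (log2 differences -2.03 and -2.49, limma adjusted p = 0.00296 and 0.006). The motor Myo5b, Rab11a and the trafficking proteins Vps33b and Vipas39 did not pass in any of these comparisons.

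On the uptake side, 5 of 8 listed carriers were tested and none passed for GW4064 under either label. With GW4064, 2 were lower under the Fxr-/- label and 0 higher, and with vehicle 1 was lower and 0 higher, beside the same 9.14% and 5% of all genes that were lower. Slc10a1, the sodium-dependent bile salt carrier NTCP, gave 49.8 and 22.2 against 108.4 and 88.7 with GW4064 (log2 difference -1.19, limma adjusted p = 0.0299), and 79.2 against 119.8 and 141.6 with vehicle, which did not pass. Slco2b1, an organic anion carrier, gave 592.5 and 405.4 against 7498.7 and 7158.0 with GW4064, and 714.2 against 6326.4 and 7764.1 with vehicle (log2 differences -3.86 and -3.27, limma adjusted p = 0.000157 and 0.00126). Under the Fxr-/- label with GW4064, Abcb11 was higher and both of these carriers were lower, while the 3 other carriers tested did not pass. Slco2b1 was lower with vehicle too, where Abcb11 differed by 0.19. The 22.2 of Slc10a1 lay in the background range.

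**Figure D5:**
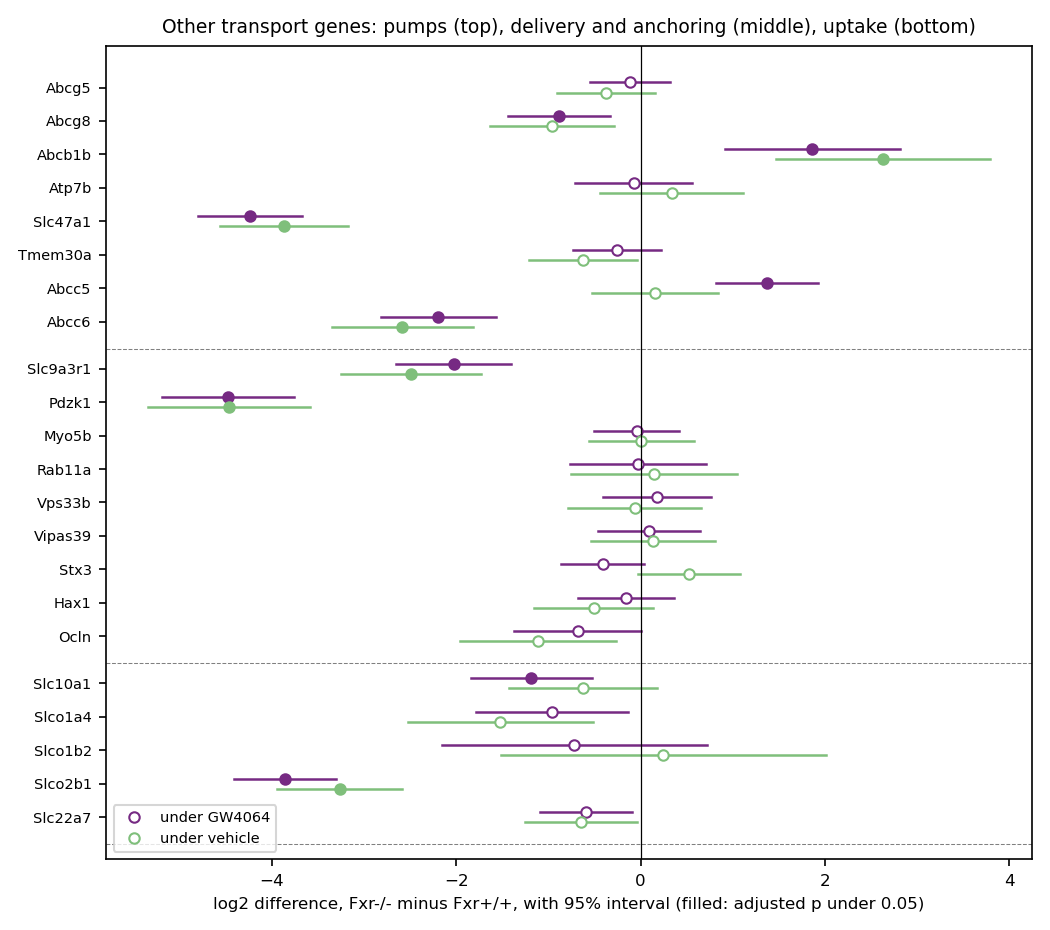
Log2 difference of the Fxr-/- label minus Fxr+/+ (horizontal axis) with GW4064 (upper row of each gene) and with vehicle (lower row) for 8 other pumps and lipid transporters, 9 delivery and anchoring genes and 5 uptake carriers, with 95% intervals. Filled points passed the threshold. Slc47a1, Pdzk1 and Slco2b1 lay between -4.48 and -3.27 with both treatments.

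Genes that regulate the exporters were listed too, 13 in all with 10 tested, and none passed for GW4064 under either label. Nr0b2 (SHP), a repressor that FXR induces, lay between -25.3 and -5.1 on all arrays, within the background range, and gave no reading of FXR activity. With GW4064, 2 were lower under the Fxr-/- label (Nr1i3 and Nr1h4 itself), as were 9.14% of all genes, and with vehicle 2 (Nr1i3 and Hnf4a), as were 5%. Nr1i3, the xenobiotic receptor CAR, differed by -4.09 with GW4064 (limma adjusted p = 0.0021) and by -3.95 with vehicle (limma adjusted p = 0.0106). Nr1h4 differed by -0.80 with GW4064 (limma adjusted p = 0.0276), and Hnf4a, a master regulator of hepatocyte genes, by -1.29 with vehicle (limma adjusted p = 0.0167).

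Some exporters, Abcc3 and Abcc2 among them, are also known targets of NRF2 and of the receptors CAR and PXR, so target genes of these factors were read beside them. Of 11 NRF2 targets, all tested, 2 rose with GW4064 under the Fxr-/- label and 0 fell, against 0.0512% and 0.0205% of all genes. Gstm3, a glutathione transferase, gave 194.9 and 171.1 with GW4064 against 0.9 with vehicle (at least 4.62-fold, limma adjusted p = 0.0139). Gpx2, a glutathione peroxidase, gave 89.4 and 131.8 against 1.9 (at least 2.75-fold, limma adjusted p = 0.0459). In Fxr+/+ Gstm3 gave 169.2 and 119.6 against 27.8 and 18.1, and Gpx2 gave 176.7 and 216.6 against 33.4 and 51.7, with 0 of 11 past the threshold and a list median of 0.39. Of 8 CAR and PXR targets tested, 1 rose with GW4064 in Fxr+/+ (Cyp2b13, log2 change 2.84, limma adjusted p = 0.0172), as did 0.0102% of all genes, and 0 passed under the Fxr-/- label. Abcc3 and Abcc2 had values near 0 in both comparisons, as given above. Between the labels, 6 of the 8 CAR and PXR targets were lower under the Fxr-/- label with GW4064 and 0 higher, against 9.14% and 5.47% of all genes, among them Cyp2b13 (log2 difference -2.04), Cyp2c55 (-2.90) and Cyp2b10 (-1.66). With vehicle Cyp2b9 was higher (2.15) and Cyp2c55 lower (-2.11), against 1.85% and 5% of all genes. Of the 11 NRF2 targets, Nqo1 (-1.34) and Srxn1 (-0.94) were lower with GW4064, as were 9.14% of all genes. Gpx2 was lower with vehicle, by at least 1.14-fold, as were 5% of all genes.

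Slc51b and Abcc3 are also expressed by bile duct cells, and the markers of those cells were low. Of 8 listed, 5 had a probe, and Krt19 and Cftr lay in the background range on all arrays. The summed signal of the 5 ranged from 207.9 to 262.6 in the GW4064 arrays labelled Fxr-/- and was 195.7 in the vehicle array, and it ranged from 151 to 169.1 in the Fxr+/+ GW4064 arrays and from 179.3 to 199.8 in the Fxr+/+ vehicle arrays. The sum was higher with GW4064 than with vehicle under the Fxr-/- label and lower in Fxr+/+, but the markers did not move alike. Under the Fxr-/- label Sox9 gave 105.1 and 130.2 with GW4064 against 73.3 with vehicle. Muc1 gave 69.7 and 79.9 against 67.4, and Krt7 was lower, at 33.1 and 52.5 against 55.0. Under the Fxr-/- label with GW4064 Sox9 was higher than in Fxr+/+ (log2 difference 1.04, limma adjusted p = 0.0379), as were 5.47% of all genes. The 2 other bile duct markers tested did not pass.

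Hepatocyte markers summed to between 99746.3 and 123350 in the GW4064 arrays labelled Fxr-/- and to 123457 in the vehicle array, and to between 123500 and 123927 with GW4064 and between 112708 and 119777 with vehicle in Fxr+/+. The lower sum under the Fxr-/- label belonged to the array with the higher Abcb11 signal. That order rests on a pair of arrays, and nothing is read from it. Blood leukocyte markers had lower sums on every array labelled Fxr-/- than on any Fxr+/+ array, with a wide spread within Fxr+/+ vehicle. They summed to between 225.8 and 297.6 in the GW4064 arrays labelled Fxr-/-, 864.2 in the vehicle array, between 2903.1 and 2919.7 in the Fxr+/+ GW4064 arrays and between 1155.7 and 2872.4 in the Fxr+/+ vehicle arrays. Of the 5 listed, Ptprc and Cd79a lay in the background range on all arrays. All 3 leukocyte markers tested, S100a8, S100a9 and Cd3e, were lower under the Fxr-/- label than in Fxr+/+ with GW4064, as were 9.14% of all genes. In that comparison Cd3e gave 33.6 and 52.4 under the Fxr-/- label, the lower of them in the background range. Of the other lists, the endothelial marker Cdh5 lay in the background range in both groups of that comparison, so no difference is given, and 0 Kupffer cell, stellate cell or hepatocyte markers passed between the labels. The part of any of these cell types in the exporter values was not tested.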

How the data were processed

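The authors deposited 1 intensity per probe and array on a linear scale, for 25697 probes. Per the labels' protocols, total RNA was isolated with Trizol and RNeasy columns with DNase I, and biotinylated cRNA was made for Illumina arrays. The deposited intensities were background-subtracted and between-array normalized as the values show, since sorted columns differed by at most 0.5, and no source used here names the software. Depth does not apply to arrays, whose number limits the precision. Probes were named from the platform annotation (23978 with 1 symbol, 1719 without).

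Signals were converted to log2(max(signal, 0) + 16). Probes above their array's median on at least 2 arrays were kept (14041), and the probe with the highest mean stood for its gene. The 7 arrays were fitted as cell means with limma 3.58.1 under R 4.3.3 (residual df 3, prior df 4.55, prior SD 0.228). Intervals are 95%, and with a group in the background range folds are given as "at least", with signals under 39.5 set to it. The fit was tested on simulated data. Figures were drawn with matplotlib 3.10.9.

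The members and the gene lists were chosen with earlier results of these data known. Named genes were all members, Nr1h4 and Nr0b2, and of each list the genes past the threshold, or the 3 with the smallest p where more than 3 passed in a comparison. Alternatives changed the offset, the filter, the probe rule, the normalization, the prior, the arrays fitted and a replicate block, and left out each array in turn.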

Additional observations from a re-analysis of the deposited data

How the results depend on the processing

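No called exporter value changed sign under an alternative run, and sign changes occurred only in values of Abcb4, Abcc2, Abcc3, Atp8b1 and Slc51a that did not pass, and of Slc51b and Atp8b1 in the added average over both treatments. Over the log2 changes of the 7 exporters, 634 alternative values kept their direction and side of the threshold, 11 gained a call, 17 lost one and 46 that did not pass reached or crossed 0. For each such case the cause was not tested. Median centring and a further quantile normalization changed no count by over 1.5 times.

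The numbers of genes past the threshold moved more than the exporter values. For GW4064 under the Fxr-/- label, 7 genes became 55 with an offset of 1, 119 with signals raised to the background range, 361 with no filter, 4 with a filter on all 7 arrays, 2 with the mean of a gene's probes, 14 with a trend in the prior, 0 with only the arrays of the comparison, and 1 to 3 when an array was left out. Of the exporters 1 passed there, which became 0 with the background range, no filter, the mean of probes and only the arrays of the comparison, 2 with the trend, and 0 to 1 when an array was left out. In Fxr+/+, 2 genes became 0 with an offset of 1, the background range or only those arrays, 5 with no filter, 6 with the trend, and 0 to 1 when an array was left out, and 0 exporters became 1 with the trend and 0 to 1 when an array was left out. The 0 genes of the difference between the GW4064 changes became 12 with an offset of 1, 61 with the background range and 303 with no filter. The 9 genes of the average over labels became 23 with an offset of 1, 29 with an offset of 100, 77 with the background range, 346 with no filter, 42 with the trend, and 2 to 8 when an array was left out. Its 1 exporter became 2 with an offset of 100 or the trend, 0 with the background range or no filter, and 0 to 1 when an array was left out.

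Between the labels with GW4064, 1427 genes became 925 with an offset of 1, 859 with the background range, 383 with no filter, and 499 to 1383 when an array was left out. Its 1 exporter became 2 with an offset of 100 or the trend, where Abcc2 joined (adjusted p = 0.0322 and 0.046), 0 with no filter, and 0 to 1 when an array was left out. With vehicle, 669 genes became 397 with only those arrays and 405 to 643 when an array was left out. The lone vehicle array labelled Fxr-/- could not be left out, and the setting with only the arrays of the comparison has no meaning for the difference and the average, which use all 7.

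Same-numbered arrays deviated together with correlations of 0.242, 0.375 and 0.233 over the 3 pairs of groups, and each comparison shared at most 2 numbers, which the labels do not describe as pairs. With the replicate block, 7 genes became 3 and 1 exporter became 0 for GW4064 under the Fxr-/- label (Slc51b, adjusted p = 0.0746), and 2 genes became 5 in Fxr+/+. The replicate block changed no other exporter call.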

Other observations

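The genes whose log2 signals ran most like each exporter over the 7 arrays were read as a description, with Pearson's r over arrays that share treatments and labels and with no test. For Abcb11 they were Dnttip1 (r = 0.991), Slc19a1 (r = 0.989), the reduced folate carrier, and Chd1l (r = 0.988). For Slc51b they were Ppl (r = 0.988), which encodes the cytoskeletal linker periplakin, Thumpd1 (r = 0.974) and Gstm3 (r = 0.969). Ppl was also nearest to Atp8b1 (r = 0.962), followed by Rad51ap1 (r = 0.953) and Bsph1 (r = 0.938), which lay in the background range on every array.

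For Abcc2 they were Rpl10 (r = 0.991), Gps1 (r = 0.990) and Gpat3 (r = 0.990), for Abcb4 Stau2, Bckdk (r = 0.976) and Arrb2 (r = 0.971), and for Abcc3 Tmem42 (r = 0.969), Abca8a (r = 0.947) and Rpl22l1 (r = 0.943). Slc51a lay in the background range on every array, so its nearest genes, Sppl2c (r = 0.972), Tns2 (r = 0.954) and Smg8 (r = 0.949), follow values without order.

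The exporter probes also differed in how closely pools of a group agreed. Abcb11 differed between the arrays of a pair by 0.05 on the log2 scale in Fxr+/+ vehicle (percentile 10.8 of all genes), by 0.11 in Fxr+/+ GW4064 (percentile 30.6) and by 0.50 in the GW4064 arrays labelled Fxr-/- (percentile 77.5).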
